A study of Arabidopsis thaliana with 12 samples.

Results

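The genes described here encode nuclear subunits of the photosystems and a protein of the light-harvesting antenna. They are the photosystem II genes PSBW (AT2G30570), PSBY (AT1G67740) and PSB27 (AT1G03600), the photosystem I gene PSAN (AT5G64040) and the antenna gene LHB1B2 (AT2G34420). They were taken by name from the platform annotation as probes that carry 1 gene, which gave 5 of the 692 probes with 1 gene and 5 of the 3439 probes in all. The arrays were hybridised with total RNA from Arabidopsis thaliana, 6 samples from the toc120 mutant and 6 from wild type (WT), both of the Columbia 0 ecotype. Per the labels, toc120 is impaired in the passage of proteins through the outer membrane of the chloroplast, and the question is how transcript levels in that mutant compare with WT. The sources used here give no allele, tissue, plant age or growth conditions, and they do not say whether samples of the same genotype are separate plants or cultures. The p-values below therefore speak only of the spread among the samples, part or all of which may be technical.

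Photosystem II takes electrons from water and photosystem I passes them on to ferredoxin, while the antenna proteins bind chlorophyll and feed light energy to the reaction centres. Plastid genes encode the cores of both photosystems, and nuclear genes encode the antenna and many of the smaller subunits, which are made in the cytosol with a transit peptide and imported through the TOC and TIC complexes of the envelope. TOC120 is one of the outer envelope receptors for imported precursors, and which precursors it takes was not examined here. Nuclear photosynthesis genes are known to respond to the state of the plastid through retrograde signals.

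The coverage of photosynthesis was thin. Of 58 nuclear loci on lists of photosystem II, photosystem I, the antenna, electron transport and the ATP synthase, 5 had a probe with 1 gene, and these are the 5 described here. Photosystem II had 3 of 14 loci, photosystem I 1 of 12, and the antenna 1 of 20. A further 6 loci were covered by shared probes alone and are not described. TOC120 itself had 0 probes with 1 gene, so the labels could not be checked against the mutated gene. The same holds for the tissue, since 0 of 18 marker loci of leaf, root, seed and flower had such a probe.

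The deposited values are linear intensities from 0 to 100 with no stated scaling. Array totals ran from 2688 to 3686 in toc120 and from 2641 to 3553 in WT, whereas array medians ran from 0.188 to 0.278 in toc120 and from 0.151 to 0.157 in WT. The typical probe was thus brighter on the toc120 arrays while the totals overlapped, so any change in level depends on how the arrays are put on 1 scale. Arrays with neighbouring numbers (1 and 2, 3 and 4, 5 and 6) of a genotype were more alike than its other arrays, with Spearman's rho across probes of 0.952 to 0.975 against 0.91 to 0.946. They may be repeat readings, although the labels do not say so. Tests are therefore given over the 12 arrays and, where they can be run, with neighbours averaged to 3 means per genotype. In the deposited intensities the genes also differed less between neighbours, though these gaps include differences in scale between arrays. PSBY differed between neighbours by a median of 0.06 on the log2 scale. Between the other arrays of a genotype it differed by 0.32. These medians were 0.08 and 0.36 for PSAN, 0.26 and 0.82 for PSB27, 0.18 and 0.38 for LHB1B2, and 0.20 and 0.31 for PSBW. After quantile normalisation PSBY had an SD of 0.302 over the toc120 arrays and 0.332 over their means of neighbours. In WT these were 0.165 and 0.060, so there the nearness of PSBY was not seen on that scale.

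PSBW encodes a small membrane subunit of photosystem II that helps hold the supercomplex with its antenna together. Its deposited intensity had a lowest, median and highest value of 20.9, 26.3 and 33.5 on the 6 toc120 arrays, against 38.3, 48.3 and 64.1 on the 6 WT arrays. All 6 toc120 arrays lay below all 6 WT arrays. In RNA from whole samples, fewer cells of a type and less RNA per cell cannot be told apart. PSBY encodes a precursor whose small products sit in photosystem II near cytochrome b559. Its intensities were 2.18, 2.7 and 2.94 in toc120 and 2.59, 3 and 3.99 in WT. The groups overlapped, but at each of the 6 sample numbers the toc120 array was the lower.

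PSB27 encodes a lumenal protein that takes part in the assembly and repair of photosystem II. Its intensities were 0.492, 0.946 and 1.49 in toc120 and 0.517, 1.1 and 1.46 in WT. The 2 ranges almost coincided, and the toc120 array was lower at 3 numbers and higher at 3. The highest array was 3.03 times the lowest in toc120 and 2.83 times in WT, and the arrays numbered 1 and 2 were the lowest in both.

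PSAN encodes a lumenal subunit of photosystem I on the side where plastocyanin docks. Its intensities were 5.82, 7.18 and 10.1 in toc120 and 5.04, 6.62 and 7.37 in WT, with overlap. The toc120 array was higher at numbers 1 to 4 and lower at numbers 5 and 6. LHB1B2 encodes an Lhcb1 protein, of the major trimeric antenna of photosystem II, and close relatives in its family may add to the signal of its probe. Its intensities were 14.5, 20.5 and 26.5 in toc120 and 21.5, 27.3 and 35.3 in WT. The ranges overlapped, and at all 6 numbers the toc120 array was the lower. In the deposited intensities 1 of the 5 genes, PSBW, had groups that did not overlap, and it was lower in toc120. Over all probes 29.3% had groups that did not overlap, and 6.51% were lower in toc120 without overlap.

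**Figure D1:**
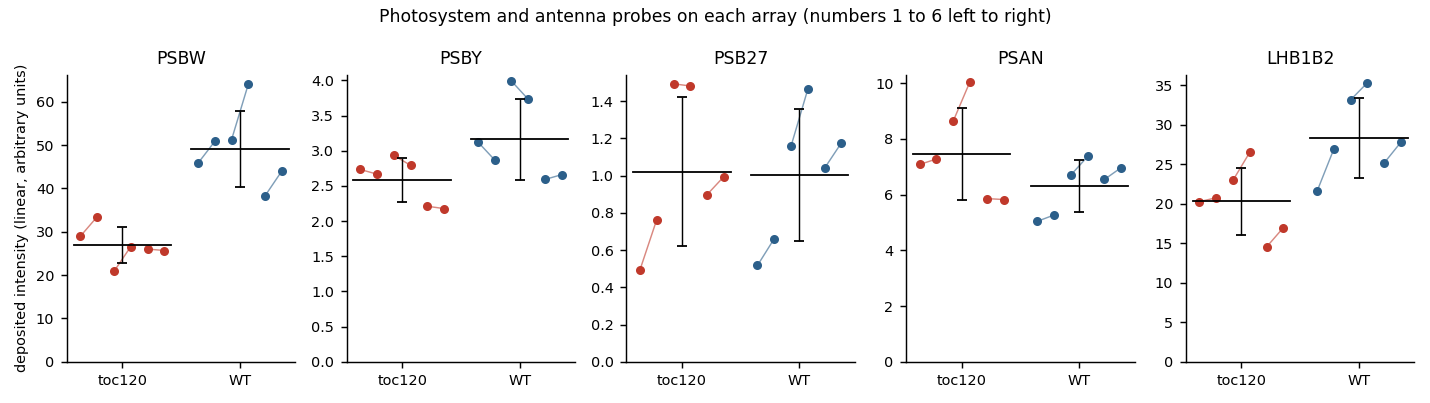
Deposited intensity of each gene's probe (linear scale, arbitrary units) on the 6 toc120 arrays and the 6 WT arrays, in order of sample number within a genotype; thin lines join neighbouring numbers, black lines are means and bars SD (n = 6 arrays). PSBW lies at 20.9 to 33.5 in toc120 and 38.3 to 64.1 in WT, while the other 4 genes overlap.

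A gene's share of its array's summed intensity does not depend on a scale factor of that array. PSBW took 0.568% to 1.16% of the total on toc120 arrays and 1.43% to 1.89% on WT arrays. LHB1B2 took 0.54% to 0.722% in toc120 and 0.777% to 1.05% in WT, and PSBY 0.0757% to 0.0954% in toc120 and 0.0965% to 0.114% in WT. For these 3 genes every toc120 array was below every WT array. PSAN overlapped, at 0.216% to 0.273% in toc120 and 0.182% to 0.264% in WT, as did PSB27, at 0.0172% to 0.0406% in toc120 and 0.0187% to 0.0445% in WT. Together the 5 probes made up 1.55% to 2.26% of the summed intensity in toc120 and 2.74% to 3.22% in WT. Over all probes, 32.2% had shares that did not overlap and 9.1% were lower in toc120 without overlap. Among the brightest 10% of the probes, where PSBW, LHB1B2, PSAN and PSBY lie, 32.7% were lower in toc120 without overlap, so the 3 genes stand in a class in which this was common.

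The rank of a probe within its array does not depend on any scaling that keeps the order of the probes. PSBW stood between places 13 and 29 from the brightest in toc120 and between 6 and 14 in WT. PSBY stood between places 143 and 196 in toc120 and between 125 and 143 in WT, the ranges touching at a single place. Both fell in rank by an exact permutation test of the mean percentile rank over the 12 arrays, with adjustment over all 3439 probes. The mean percentile rank of PSBW was 99.49 in toc120 and 99.74 in WT (difference -0.25, adjusted p = 0.0175), and that of PSBY 95.17 in toc120 and 96.16 in WT (difference -0.99, adjusted p = 0.0125).

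Both also passed without any single array. The other 3 genes did not pass in rank over the 12 arrays, although LHB1B2 passed without WT 1 (adjusted p = 0.0186, exact permutation test) and PSAN without WT 5 or WT 6 (0.0374 and 0.0138). LHB1B2 stood between places 24 and 30 in toc120 and between 20 and 25 in WT (exact permutation test, adjusted p = 0.0569). PSAN stood between places 49 and 65 in toc120 and between 59 and 86 in WT (exact permutation test, adjusted p = 0.061). PSB27 ranged widely, from place 387 to 908 in toc120 and from 277 to 641 in WT (exact permutation test, adjusted p = 0.373), although at each of the 6 numbers its place was the lower one in toc120. The 2 of 5 genes that passed, both lower in toc120, compare with 44.5% of all probes in either direction and 23.9% lower. With neighbours averaged, 3 means against 3 cannot give an exact p under 0.1, so ranks were not tested in that way.

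**Figure D2:**
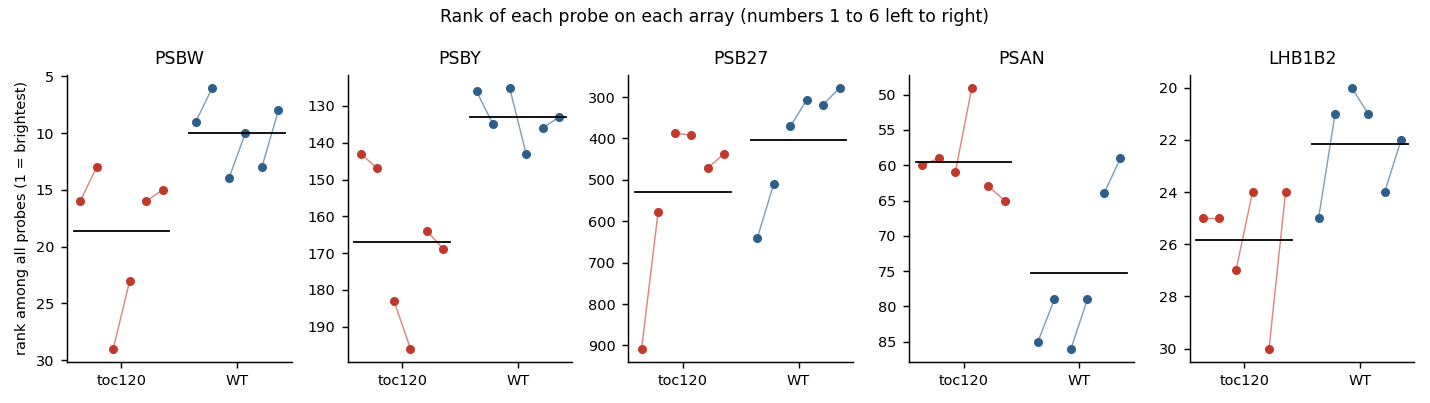
Rank of each gene's probe among the 3439 probes of an array (1 is the brightest, drawn at the top), on the 6 toc120 and 6 WT arrays in order of sample number; thin lines join neighbouring numbers and black lines are means. PSBW lies at places 13 to 29 in toc120 and 6 to 14 in WT, and PSAN at 49 to 65 in toc120 and 59 to 86 in WT.

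After quantile normalisation, which gives all arrays the same distribution, PSBW, PSBY and LHB1B2 fell over the 12 arrays by limma with adjustment over all probes, and PSAN rose, although its direction turned with equal array medians (to -0.37). Of the 5 genes 4 passed, against 46.1% of all probes. Of these, 3 were lower, against 24.8% of all probes, and 1 was higher, against 21.4%. The quantile-normalised intensity of PSBW averaged 31 ± 7.62 in toc120 and 45.5 ± 7.05 in WT (SD, n = 6 each). Its log2 change was -0.58 with an SE of 0.18 (limma adjusted p = 0.0206). That of PSBY averaged 2.51 ± 0.302 in toc120 and 3.14 ± 0.165 in WT (SD, n = 6 each). The log2 change was -0.33 with an SE of 0.08 (limma adjusted p = 0.00432). LHB1B2 averaged 21.8 ± 2.02 in toc120 and 26.1 ± 2.5 in WT (SD, n = 6 each), and its log2 change was -0.25 with an SE of 0.08 (limma adjusted p = 0.0228). PSAN averaged 7.76 ± 0.846 in toc120 and 6.09 ± 1.12 in WT (SD, n = 6 each), and its log2 change was 0.36 with an SE of 0.12 (limma adjusted p = 0.0254). PSB27 did not pass, with a log2 change of -0.38 and a 95% confidence interval of -0.95 to 0.19.

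With neighbours averaged, 0 of the 5 genes passed in limma, against 31.5% of all probes, and 2, PSBY and LHB1B2, had an unadjusted p under 0.05. The limma adjusted p was then 0.145 for PSBW, 0.0801 for PSBY, 0.165 for PSAN and 0.0634 for LHB1B2. Equal sample numbers paired the arrays of the genotypes, and with the number as a block over the 12 arrays PSAN no longer passed (limma adjusted p = 0.0736) and PSB27 did (0.0158). On the means of neighbouring arrays, blocked by number pair, PSB27 did not pass (limma adjusted p = 0.101). Without a block, the call of PSAN also needed each of WT 1, WT 2, WT 3 and toc120 4 (limma adjusted p = 0.0519 to 0.0558 without 1 of them), and that of LHB1B2 needed WT 2 (0.0512 without it).

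Direction and size moved with the scaling, which was by quantiles, none (the deposited intensities) or to equal array medians. The genes that passed over the 12 arrays numbered 4, 2 and 3 of 5 under these scalings, against 46.1%, 45.5% and 46.2% of all probes. Of the brightest 10% of the probes, 39.7%, 31.8% and 56.9% passed as lower and 33.8%, 32.9% and 18.1% as higher. The log2 change of PSBW was -0.58, -0.86 and -1.46, lower in toc120 under each. LHB1B2, at -0.25, -0.48 and -1.08, and PSBY, at -0.33, -0.28 and -0.87, were also lower under each, although PSBY did not pass as deposited (limma adjusted p = 0.0949). PSAN was at 0.36 and 0.22 under the first scalings and at -0.37 with equal array medians, where its limma adjusted p was 0.055, so no direction can be given for its level. PSB27 was at -0.38, 0.010 and -0.57 and did not pass under any of them. The median change of all probes was 0, 0.23 and -0.04 under these scalings, and that of the brightest 10% of the probes was -0.07, -0.10 and -0.69. The median of the 5 genes was -0.33, -0.28 and -0.87. Whether the lower values of the bright probes as a class account for those of these genes was not tested.

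**Figure D3:**
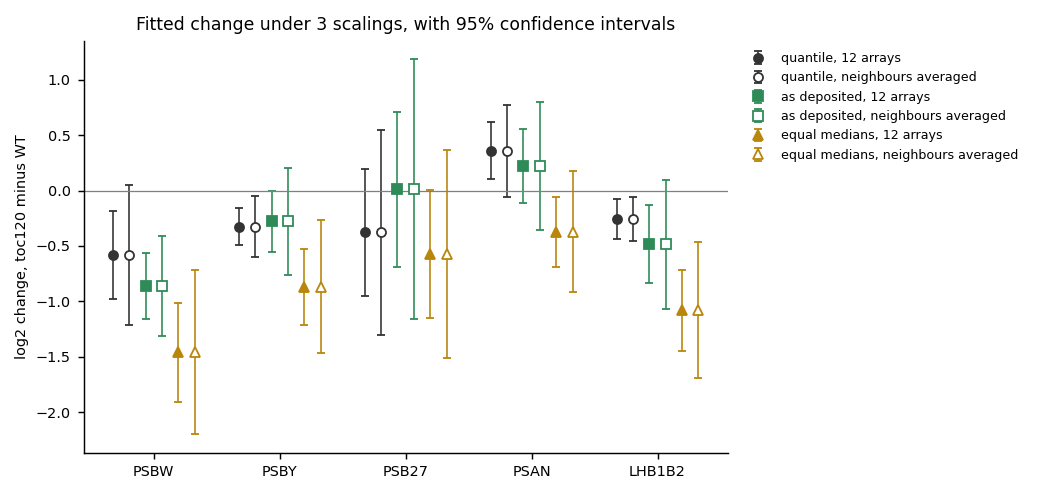
Fitted log2 change (toc120 minus WT) of each gene with its 95% confidence interval, under 3 scalings of the arrays, over the 12 arrays (filled symbols) and with neighbouring numbers averaged (open symbols). PSBW, PSBY and LHB1B2 lie below 0 under every scaling, and PSAN lies at 0.36 after quantile normalisation and at -0.37 with equal array medians.

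The difference was not equal over the numbers. Within numbers 1 and 2, 3 and 4, and 5 and 6, the quantile-normalised log2 difference of PSBW was -0.49, -0.92 and -0.33, that of PSBY -0.16, -0.50 and -0.31, and that of LHB1B2 -0.15, -0.35 and -0.27. All 3 were lower in toc120 within each of these sets of arrays, and each was furthest from 0 at numbers 3 and 4. As deposited, PSBW and PSBY were again furthest from 0 there, and LHB1B2 was so at numbers 5 and 6, with -0.23, -0.47 and -0.75 in the same order. PSAN was at 0.52 and 0.64 at numbers 1 to 4 and at -0.08 at numbers 5 and 6. Without numbers 5 and 6 its log2 change was 0.58 (limma adjusted p = 0.00175), without numbers 1 and 2 it was 0.27 (0.229) and without numbers 3 and 4 it was 0.23 (0.255). PSB27 was at -0.34, -0.20 and -0.60 after quantile normalisation and at 0.07, 0.19 and -0.22 as deposited.

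**Figure D4:**
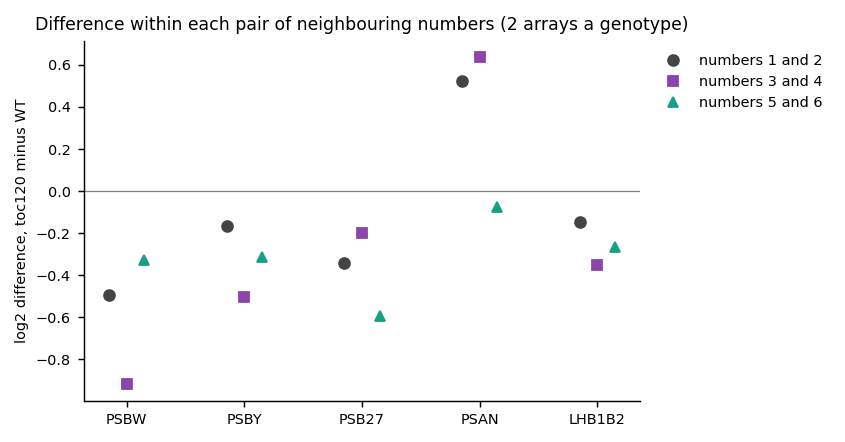
Log2 difference in quantile-normalised intensity (toc120 minus WT) of each gene within each set of neighbouring numbers, 2 arrays per genotype. PSBW, PSBY, PSB27 and LHB1B2 are below 0 in all 3 sets (PSB27 not so as deposited), whereas PSAN is at 0.52 and 0.64 in the first sets and at -0.08 at numbers 5 and 6.

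The ratio of 2 probes on the same array is free of that array's scale factor, but not of other differences between the arrays' distributions. A difference in it shows unequal change of the 2 genes, and no more, only where the arrays differ by a scale factor alone. The 10 ratios among the 5 genes were compared in the deposited intensities with an exact permutation test over the 12 arrays, with p-values adjusted over the 10. The brightness of different probes does not rank the abundance of their transcripts, so only the change of a ratio is read.

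The ratio of the photosystem I subunit to the antenna gene separated the genotypes. PSAN over LHB1B2 ranged from 0.343 to 0.403 on toc120 arrays and from 0.196 to 0.26 on WT arrays. Its log2 averaged -1.45 ± 0.09 in toc120 and -2.16 ± 0.17 in WT (SD, n = 6 each), a difference of 0.71 or 1.64-fold (exact permutation p = 0.00216, the smallest that 6 against 6 allows, adjusted p = 0.00722). The ratio was higher in toc120 at all 6 numbers, by 0.71, 0.88 and 0.54 on the log2 scale within the successive sets of neighbouring numbers.

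PSBW fell against both PSAN and PSBY. PSBW over PSAN ranged from 2.41 to 4.6 in toc120 and from 5.86 to 9.65 in WT, a log2 difference of -1.09 or 2.12-fold (exact permutation p = 0.00216, adjusted p = 0.00722). PSBW over PSBY ranged from 7.1 to 12.5 in toc120 and from 12.8 to 17.7 in WT, a log2 difference of -0.58 (exact permutation p = 0.00216, adjusted p = 0.00722). In both ratios no toc120 array reached the WT range. With quantile-normalised intensities, however, the difference of PSBW over PSBY was -0.25 and did not pass (exact permutation test, adjusted p = 0.227). PSBY over PSAN was also lower, at 0.278 to 0.386 in toc120 and 0.382 to 0.62 in WT, a log2 difference of -0.51 (exact permutation p = 0.00433, adjusted p = 0.0108). At numbers 5 and 6 that difference was -0.05, and at the other numbers -0.63 and -0.84.

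The order of the probes within an array hardly differed. On 11 of the 12 arrays the order from the brightest was PSBW, LHB1B2, PSAN, PSBY and PSB27. On the other, toc120 3, LHB1B2 was brighter than PSBW. PSBW over LHB1B2 was 0.908 there and 1.43 to 1.79 on toc120 1, 2, 5 and 6 (the probes were almost equal on toc120 4, with a log2 ratio of 0.0045), against 1.52 to 2.13 in WT (log2 difference -0.38, exact permutation adjusted p = 0.0938). The arrays toc120 3 and 4 were thus low for PSBW against each of the other 4 genes.

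The remaining ratios did not pass over the 12 arrays without the pairing. PSBY over LHB1B2 averaged -2.96 ± 0.17 on the log2 scale in toc120 and -3.16 ± 0.21 in WT (SD, n = 6 each), a difference of 0.20 (exact permutation test, adjusted p = 0.149). The 3 other ratios with PSB27 as a partner of PSBY, PSAN or LHB1B2 had differences of -0.29, -0.22 and 0.50, written as PSBY over PSB27, PSB27 over PSAN and PSB27 over LHB1B2, and that of PSBW over PSB27 was -0.87, with exact permutation adjusted p-values of 0.429, 0.429, 0.149 and 0.0938. When the arrays were paired by sample number, PSBW over PSB27, PSBY over PSB27 and PSB27 over LHB1B2 passed, each with the same direction at all 6 numbers (exact sign-flip test, adjusted p = 0.0446 for each). Their unadjusted p was the smallest that the sign-flip test allows, 0.03125. That test treats the 6 numbers as independent, which does not hold if neighbouring arrays are repeat readings. With quantile-normalised intensities PSB27 over PSAN was at -0.75 and passed (exact permutation test, adjusted p = 0.0216), and PSBY over PSB27 (0.060) and PSB27 over LHB1B2 (-0.13) turned round. With 4 arrays per genotype, 6 of the 10 passed by the exact permutation test without numbers 1 and 2 (adjusted p = 0.0476 for each), while 0 passed without numbers 3 and 4 or without 5 and 6, where 3 and 4 had an unadjusted p under 0.05. The smallest exact permutation p of 4 against 4 is 0.0286. After adjustment a ratio could pass only where several reached that floor together, so 0 passing does not show that the differences were lost. In all, over the 12 arrays, 4 of the 10 ratios passed and 3 had groups that did not overlap. Among all 3153816 pairs of probes above 0 on every array, 34.5% had ratios that did not overlap, so the share among these genes was near that of the whole array.

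**Figure D5:**
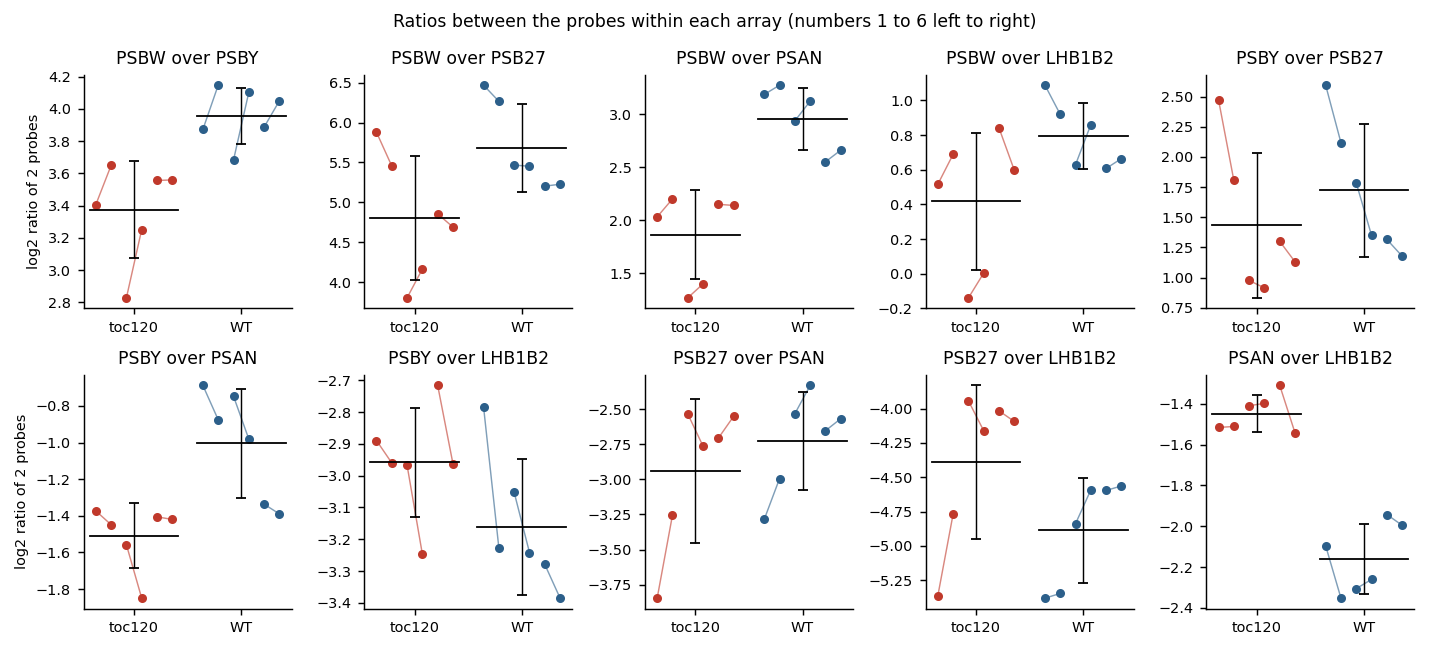
Log2 ratio of the deposited intensities of 2 probes on the same array, for the 10 combinations of the 5 genes, on the 6 toc120 and 6 WT arrays in order of sample number; thin lines join neighbouring numbers, black lines are means and bars SD (n = 6 arrays). PSAN over LHB1B2 lies wholly higher in toc120, and PSBW over PSAN and PSBW over PSBY lie wholly lower.

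Each gene was also set against all 2511 other probes above 0 on every array. PSBW had a lower ratio on all toc120 arrays than on any WT array against 52.4% of them and a higher one against 0.916%. LHB1B2 was lower against 42.5% and higher against 3.07%, and PSBY lower against 36.9% and higher against 5.66%. PSAN was lower against 21.8% and higher against 12.2%. PSB27 was lower against 17.3% and higher against 2.15%. Of the 5 genes, PSBW thus had the largest share of lower ratios and PSAN the largest share of higher ones, although PSAN too was more often lower than higher. For comparison, 34.5% of all pairs of such probes had ratios that did not overlap, counting both directions. As deposited, the median log2 change was 0.23 over all probes and -0.10 over the brightest 10%, where PSBW, LHB1B2, PSAN and PSBY lie. Whether other bright probes had similar shares of lower ratios was not tested.

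The probes whose values followed each gene most closely were found among 490 other probes with 1 gene that were above 0 on every array, by Pearson's r of the quantile-normalised log2 intensity over the 12 arrays. They are the highest of many values, the arrays share the difference between genotypes and the likeness of neighbours, and r is given as a description. For PSBW they were AT2G46050 (r = 0.935), PAC (r = 0.9), whose product is needed for chloroplast development, and AT1G74070 (r = 0.866). Within toc120 these 3 had r of 0.892, 0.891 and 0.917 and within WT 0.809, 0.596 and 0.521. For PSBY they were AT5G48830 (0.926), the calmodulin-binding protein gene IQD22 (0.923) and again AT2G46050 (0.915), and within WT r was only 0.291, 0.34 and 0.0701. IQD22 had an intensity of 0.0525 in toc120 and 0.181 in WT, with a log2 change of -1.42 (limma adjusted p = 0.000614 over the 12 arrays and 0.0337 with neighbours averaged).

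For LHB1B2 they were AT1G28150 (0.887), AT2G03390 (0.85) and AT3G15140 (0.808), with r of 0.906, 0.7 and 0.553 within toc120 and 0.602, 0.884 and 0.71 within WT. AT3G15140 had an intensity of 0.477 in toc120 and 1.08 in WT (log2 change -1.15, limma adjusted p = 7.34e-05 over the 12 arrays and 0.0182 with neighbours averaged). For PSAN they were AT1G54520 (0.856), AT5G42070 (0.841) and AT2G23890 (0.838). These 3 followed PSAN within WT, with r of 0.929, 0.835 and 0.86, and not within toc120, with r of 0.124, 0.106 and -0.222. AT1G54520 was at 0.195 in toc120 and 0.0502 in WT, a log2 change of 1.61 (limma adjusted p = 0.000477). For PSB27 they were TCP15 (0.858), a transcription factor gene, AT1G32160 (0.843) and AT2G44760 (0.838), with r of 0.835 to 0.975 within toc120 and 0.795 to 0.87 within WT. None of the last 3 passed between genotypes, their limma adjusted p-values being 0.534, 0.313 and 0.616.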

How the data were processed

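The deposited table gives linear intensities of 3439 probes on 12 arrays. How the authors corrected and scaled these deposited intensities is not given in the sources used here. Probes were named from the platform annotation through the TAIR10.1 gene table, giving 692 probes with 1 gene, 870 with several and 1877 with none. Intensities were quantile-normalised and tested as log2(value + 0.0261), the constant being the 5th percentile of positive values, with limma 3.58.1 in R 4.3.3 (two-sided, Benjamini-Hochberg over all probes, threshold 0.05). Fold changes are on that scale. Ranks, shares and ratios used the deposited intensities without a constant, with exact two-sided permutation tests over 924 splits (numpy 2.4.6, Python 3.11.15; figures by matplotlib 3.10.9). The fits were tested on simulated data in which neighbouring arrays were correlated. There the fits over the 12 arrays gave a larger share of false calls than the threshold of 0.05 allows. The share was smaller with neighbours averaged, though still above that threshold. Fewer probes were changed there than passed in the data, so these shares need not hold for the data. Fits over the 12 arrays without a block treat neighbouring arrays as independent, and so do the exact permutation tests of ranks and ratios. The fit with the sample number as a block likewise treats neighbouring numbers as independent. If neighbouring arrays are repeat readings, the p-values of these fits and tests are too small.

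Equal sample numbers paired the arrays: deviations from the genotype means correlated with r of 0.217 to 0.348 across probes between the toc120 and WT arrays of a number, and all 12 arrays matched their own number best. The labels give the number but not what it marks.

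Genes named were the 5 described and, for each, the 3 probes with the highest r. The genes, lists and tests were chosen with earlier results of these data known. The file holds no signal over background, and precision is limited by the number of arrays. No nucleotide or protein sequence was used here.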

Additional observations from a re-analysis of the deposited data

Results flagged for a closer look

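PSB27 stood at place 908 from the brightest on toc120 1, against places 387 to 578 on the other 5 toc120 arrays. Its gap to the nearest array made up 0.633 of the range, which is past the 95% limit of Dixon's test. This was 1 of 50 groups of 6 arrays examined for the 5 genes (intensity, rank, share and ratios), and chance marks about 1 in 20. Without this array the log2 change of PSB27 was -0.21 (limma adjusted p = 0.488), and the ratios PSBW over PSB27 (-1.09, exact permutation adjusted p = 0.026) and PSB27 over LHB1B2 (0.69, exact permutation adjusted p = 0.0289) passed.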

How the results depend on the processing

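Over the 12 arrays, PSBW passed under all 3 scalings, with the larger constant of 0.24, without dim probes and without any single array (log2 change -0.65 to -0.44). PSBY did too (-0.37 to -0.29), except as deposited (-0.28). LHB1B2 (-0.29 to -0.20) was lost without WT 2 (limma adjusted p = 0.0512). PSAN (0.31 to 0.44) did not pass when any of WT 1, WT 2, WT 3 and toc120 4 was left out (limma adjusted p = 0.0558, 0.0519, 0.0523 and 0.0536), nor as deposited (0.22), and reversed with equal array medians (-0.37). PSB27 turned to 0.010 as deposited. With the sample number as a block, PSAN (0.36) did not pass and PSB27 (-0.38) did, while PSBW, PSBY and LHB1B2 kept their calls. That fit also treats neighbouring numbers as independent.

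With neighbours averaged, and also with the number pair as a block, PSBW (-0.58), PSBY (-0.33), PSAN (0.36) and LHB1B2 (-0.25) did not pass, the limma adjusted p with the block being 0.0908, 0.103, 0.265 and 0.0909, and PSB27 did not pass with that block either (0.101). With neighbours as a random block PSBY alone passed (limma adjusted p = 0.0137). With neighbours averaged, PSBW passed as deposited (-0.86, limma adjusted p = 0.0254) and with equal medians (-1.46, 0.0238) and LHB1B2 with equal medians only (-1.08, 0.0317, against -0.48 as deposited), while PSBY (-0.28 and -0.87), PSAN (0.22 and -0.37) and PSB27 (0.010 as deposited) did not. Averaging leaves 3 values a genotype. All probes gave 1587 calls, 1084 with neighbours averaged, 979 with the number pair as a block too, 899 as deposited and averaged, 912 with equal medians and averaged, and 1688 with the number as a block.

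Leaving out number pairs was added after seeing the data. Without numbers 1 and 2, PSBW (-0.62), PSAN (0.27) and LHB1B2 (-0.31) were lost and PSB27 passed (-0.39, limma adjusted p = 0.0212). Without 3 and 4, PSAN (0.23) and LHB1B2 (-0.21) were lost, and without 5 and 6, PSBW (-0.73), PSBY (-0.34) and LHB1B2 (-0.24). These fits hold 4 arrays a genotype.

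Of the 10 ratios, 4 passed, 4 to 6 without any single array, 7 when paired by sample number as a block (exact sign-flip test, adjusted p = 0.0446 for each; PSBW over PSB27, PSBY over PSB27 and PSB27 over LHB1B2 were gained), 6 without numbers 1 and 2, and 0 without numbers 3 and 4 or without 5 and 6 by the exact permutation test, where PSAN over LHB1B2 was at 0.63 and 0.79. The smallest p is 0.0286 for the permutation test of 4 against 4 and 0.03125 for the sign-flip test. Passing after adjustment thus depended on how many ratios reached these floors together. The sign-flip test also treats neighbouring numbers as independent. With quantile-normalised intensities PSBY over PSB27 (0.060), PSBY over LHB1B2 (-0.074) and PSB27 over LHB1B2 (-0.13) reversed, PSB27 over PSAN passed (-0.75, exact permutation adjusted p = 0.0216) and PSBW over PSBY did not (-0.25). With neighbours averaged no test of ratios or ranks could pass, the smallest exact p being 0.1, although the averaged values of 4 ratios did not overlap. Ranks gave 1532 calls, and 1426 to 1510 without any single array.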
